A study of Mus musculus with 18 samples.

Results

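The 10 genes described here are components of the mammalian circadian clock and of its transcriptional output: the output factors Dbp, Tef and Hlf, the repressors Per1, Per2 and Per3, the nuclear receptors Nr1d1 and Nr1d2 (REV-ERB alpha and beta), and the activators Arntl (Bmal1) and Npas2. They were chosen by name, as every probe whose RefSeq accession belongs to 1 of these genes. This gave 15 of 41174 probes. All 10 genes passed the filter on dim probes, among 26073 genes tested. Tef and Nr1d1 had 3 probes each and Per2 had 2, and the brightest was used.

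Intestine came from C57BL/6 males fed St. John's wort (SJW, a herbal medicine) or control food, and given either saline or azoxymethane (AOM), a carcinogen that induces tumours of the gut in rodents. The 6 groups of 3 arrays were non-tumour tissue after saline on the control diet (control saline) and on SJW (SJW saline), non-tumour tissue after AOM on each diet (control AOM, SJW AOM), and tumours after AOM on each diet (control tumour, SJW tumour). Each 2-colour array set 1 sample (Cy5, red) against a commercial RNA pool of Swiss Webster mice (Cy3, green), made from embryos and adult organs without intestine. Levels are log2 of red over green, so that 0 means the level of the pool. The labels used here give no age, dose, duration or hour of tissue collection, and do not say whether tumour and non-tumour tissue came from the same animals.

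The clock is a transcription loop that runs in nearly every cell, the intestinal epithelium included. The activators, as pairs of Arntl with Clock or Npas2, bind E-box sequences and switch on the Per and Cry genes, whose proteins then repress the activators. The same E-boxes drive Nr1d1, Nr1d2 and Dbp; the REV-ERB receptors in turn repress Arntl through ROR elements, and Dbp, Tef and Hlf are PAR bZIP factors that bind D-box sequences, including those of Per genes. As a result, in a mouse tissue that keeps time, Dbp, Nr1d1 and the Per genes peak at another part of the day than Arntl and Npas2. Among tissues collected at different hours these arms are known to lie in opposite directions.

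Promoter windows of 250 bases before the start, from RefSeq on build GRCm38.p6, were at hand for 9 members in 12 windows, all but Per2. The E-box CACGTG lay in 3 of these 12 windows, both of Tef and 1 of Per1, against 6.02% of all 32851 such windows. The D-box TTATGTAA lay in 1, that of Per3, against 0.819% of all windows. The ROR element, in an extended form, lay whole in 0 of the 12, against 0.0487% of all windows. An Arntl window ends, at the gene start, within letters that match the beginning of this element. The search therefore could not decide whether Arntl holds a ROR element there. Both strands were searched, and the motifs were not found to overlap in these windows. The windows below are shown because they hold the letters of an E-box or D-box, with the motif in capitals, for Tef at chr15:81802423-81802672 (plus strand), Per1 at chr11:69098699-69098948 (plus strand) and Per3 at chr4:151044666-151044915 (minus strand).
Tef: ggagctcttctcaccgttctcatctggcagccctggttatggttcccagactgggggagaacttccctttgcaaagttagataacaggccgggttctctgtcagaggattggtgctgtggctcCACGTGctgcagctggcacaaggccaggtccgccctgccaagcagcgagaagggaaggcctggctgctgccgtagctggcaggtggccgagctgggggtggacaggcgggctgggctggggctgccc
Per1: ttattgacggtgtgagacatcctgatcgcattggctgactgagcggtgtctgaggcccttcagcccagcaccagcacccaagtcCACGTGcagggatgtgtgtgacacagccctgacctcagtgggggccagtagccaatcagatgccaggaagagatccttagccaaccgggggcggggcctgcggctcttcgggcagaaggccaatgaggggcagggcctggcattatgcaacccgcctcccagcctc
Per3: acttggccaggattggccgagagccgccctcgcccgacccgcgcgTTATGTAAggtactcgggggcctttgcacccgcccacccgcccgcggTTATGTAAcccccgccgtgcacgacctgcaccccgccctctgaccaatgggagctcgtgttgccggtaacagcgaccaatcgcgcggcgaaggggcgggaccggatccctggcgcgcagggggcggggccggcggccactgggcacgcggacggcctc
The E-box begins 127 bases before the start in the Tef window and 166 bases before it in the Per1 window. The 2 D-boxes of Per3 begin 205 and 158 bases before the start. These are matches of letters and not measured binding sites.

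Median red intensities ran from 133 to 375 in non-tumour tissue (12 arrays), and from 336.5 to 786.5 in tumours (6 arrays), with 66% to 91.8% of red spots well above background. The number of arrays limits the precision. The series' design text calls the samples of a group biological replicates, and p-values measure only the spread between these samples. Tumour arrays lay on slides and a scan day of their own, so slide, scan day and tumour status cannot be told apart. The labels call the tissue small intestine and their extraction protocol names liver. On the non-tumour arrays, the mean log2 level of 8 colon markers was 2.88 to 4.82, that of 8 ileum markers 0.04 to 1.28 and that of 6 liver markers -1.90 to -0.82. Smooth muscle markers (10 genes) averaged -1.14 to 0.89 after saline, 0.35 to 2.68 in AOM non-tumour tissue and -1.18 to -0.49 in tumours, and their part in the results on AOM and tumours was not tested. In such bulk samples, fewer cells of a type and less RNA per cell cannot be told apart.

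Across the groups, the output factors Dbp, Tef and Hlf were the members that differed most. Dbp stood at 0.59, 0.34 and 0.39 on the control saline arrays and at 0.16, 0.34 and 0.02 on the SJW saline arrays. It stood at -0.49, -0.16 and -0.77 in control AOM and at -0.05, -0.25 and -0.32 in SJW AOM tissue. All 6 saline arrays lay above all 6 AOM non-tumour arrays. In tumours Dbp stood at -1.68, -2.05 and -2.10 on the control diet and at -2.0, -1.36 and -1.82 on SJW, below all 12 non-tumour arrays. Dbp thus formed 3 separate tiers, and within each tier the diets overlapped.

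Dbp was the only member that passed in control AOM against control saline tissue, with a fall of 0.91 ± 0.19 on the log2 scale (SE, n = 3 per group, adjusted p = 0.0373 in limma). On the 3 slides, each of which held 1 array of every non-tumour group, the difference was -1.15 to -0.50 on the control diet and -0.59 to -0.21 on SJW, lower on 3 of 3 slides in both. Tef, Per2 and Nr1d2 were likewise lower on 3 of 3 slides on both diets. The share of all genes lower on every slide on both diets was not computed, so these slide counts have no background beside them. Over all genes, 0.583% passed in limma in control AOM against control saline tissue, and 0.127% passed as lower. On the SJW diet the Dbp difference was -0.38 ± 0.19 (adjusted p = 0.275), and no member passed, against 1.14% of all genes (0.479% lower). At an unadjusted p under 0.05, 6 members on the control diet and 4 on SJW were counted, against 13.6% and 19.3% of all genes. The difference of the Dbp change between the diets was 0.53 ± 0.26 (adjusted p = 0.54). With both diets averaged, Dbp fell by 0.64 ± 0.13 (adjusted p = 0.0121), Tef by 0.66 ± 0.13 (adjusted p = 0.0112) and Per2 by 0.44 ± 0.11 (adjusted p = 0.0289), so that 3 of 10 members passed, all lower, against 5.57% of all genes (2.3% lower). The call of Dbp on the control diet was lost without any 1 of its 6 arrays, with adjusted p between 0.0533 (without control AOM 2) and 0.157 (without control saline 1). It was also lost with median centring in place of loess (-0.53, adjusted p = 0.294), the red channel alone (-0.94, adjusted p = 0.0855) and only the groups compared (-0.91, adjusted p = 0.202). With both diets averaged, Dbp and Tef kept their calls without any 1 of the 12 arrays, and lost them with median centring (-0.53 and -0.56, adjusted p = 0.175 and 0.167).

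In tumours against non-tumour tissue after AOM, Dbp fell by 1.47 ± 0.19 on the control diet (2.77-fold lower, adjusted p = 3.67e-05) and by 1.53 ± 0.19 on SJW (2.88-fold lower, adjusted p = 3.76e-05). In these comparisons 6 of 10 members passed on each diet, all of them lower, against 32% of all genes on the control diet (19.3% lower) and 24.6% on SJW (15.4% lower). The same 6 genes passed on both: Dbp, Tef, Hlf, Per3, Nr1d1 and Arntl. For Per3 on SJW the AOM tissue was not well above background, which leaves 5 with a measured change. Both comparisons reuse the AOM non-tumour arrays of the AOM comparisons, so the values are given side by side and not correlated. The calls of Dbp and Hlf on both diets held under every alternative run in which the gene was measured, the leaving out of each array included.

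**Figure D1:**
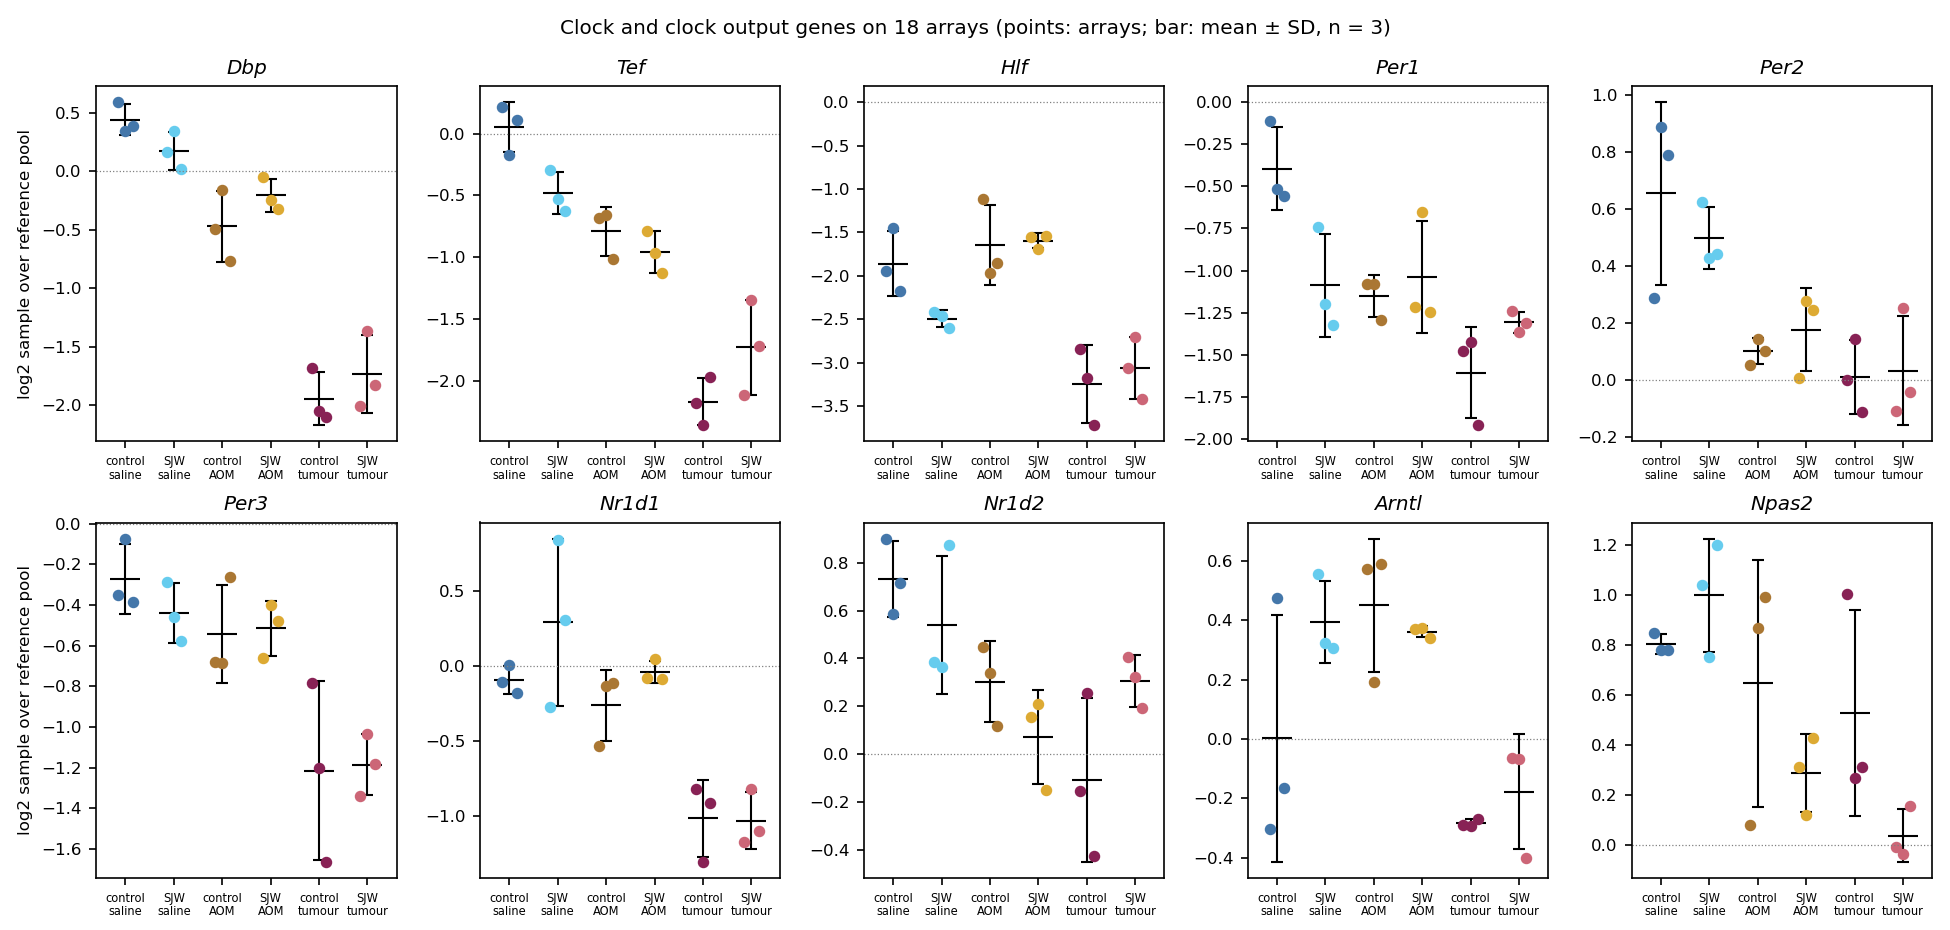
Levels of the 10 genes on 18 arrays, as log2 of sample over reference pool (y axis, scaled for each gene) by group (x axis); points are arrays, horizontal lines the means and bars the SD (n = 3). Dbp, Tef, Hlf, Per3 and Nr1d1 have all 6 tumour arrays below all 12 non-tumour arrays, and the share of all genes that do so was not computed. Against the 6 AOM non-tumour arrays alone, tumours did not overlap for 24.3% of all genes, in either direction. The Per3 probe was well above background on 0 of 3 SJW AOM arrays.

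Tef, the second PAR bZIP factor, followed a similar order of groups. It stood at 0.22, -0.17 and 0.11 in control saline tissue and at -0.29, -0.53 and -0.62 in SJW saline tissue, so that these groups did not overlap. In AOM non-tumour tissue it stood at -0.69, -0.66 and -1.02 on the control diet and at -0.79, -0.97 and -1.13 on SJW. In tumours it stood at -2.18, -2.35 and -1.97 on the control diet and at -2.12, -1.35 and -1.72 on SJW. Every AOM non-tumour array was thus below every saline array and above every tumour array. After AOM the change was -0.84 ± 0.19 on the control diet (adjusted p = 0.0518) and -0.48 ± 0.19 on SJW (adjusted p = 0.177). In tumours Tef fell by 1.38 ± 0.19 on the control diet (adjusted p = 6.69e-05) and by 0.77 ± 0.19 on SJW (adjusted p = 0.00752). The difference between these falls was 0.61 ± 0.26 (adjusted p = 1).

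The size of the Tef change in tumours depended on the probe. On the control diet the other probes of Tef gave -0.27 ± 0.17 and -0.64 ± 0.12 beside the -1.38 of the probe used. On SJW they gave -0.46 ± 0.17 and -0.66 ± 0.12. After AOM on the control diet the other probes gave -1.12 ± 0.17 and -0.92 ± 0.12, close to the -0.84 of the probe used. The authors' deposited log2 table does not list the probe used, and with its brightest listed probe the tumour difference was 0.20 on the control diet (adjusted p = 0.582). With loess that same probe gave the -0.27 above, so its sign differed between the processings.

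Hlf, the third factor, differed from Dbp and Tef in non-tumour tissue. It stood at -1.95, -1.45 and -2.18 in control saline tissue and at -2.42, -2.46 and -2.60 in SJW saline tissue. It stood at -1.12, -1.97 and -1.85 in control AOM and at -1.56, -1.70 and -1.54 in SJW AOM tissue. On SJW, all AOM arrays were above all saline arrays. The change after AOM was 0.21 ± 0.26 on the control diet (adjusted p = 0.783) and 0.90 ± 0.26 on SJW (adjusted p = 0.0847), with the sign opposite to those of Dbp and Tef; with both diets averaged it was 0.55 ± 0.18 (adjusted p = 0.0859). That mean passed with median centring (0.71, adjusted p = 0.0268), with the scanner's log ratio (0.74, adjusted p = 0.0425), without background subtraction (0.86, adjusted p = 0.0259) and without control saline 2 (0.66, adjusted p = 0.047). In tumours Hlf stood at -2.84, -3.18 and -3.72 on the control diet and at -3.06, -2.71 and -3.42 on SJW. It fell by 1.60 ± 0.26 (3.03-fold lower, adjusted p = 0.000283) and by 1.46 ± 0.26 (2.76-fold lower, adjusted p = 0.000761), respectively. With the brightest probe of each gene, Hlf and Dbp had the largest tumour changes on both diets, but another probe of Nr1d1 changed by -1.56 ± 0.24 on the control diet and by -1.67 ± 0.24 on SJW.

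**Figure D2:**
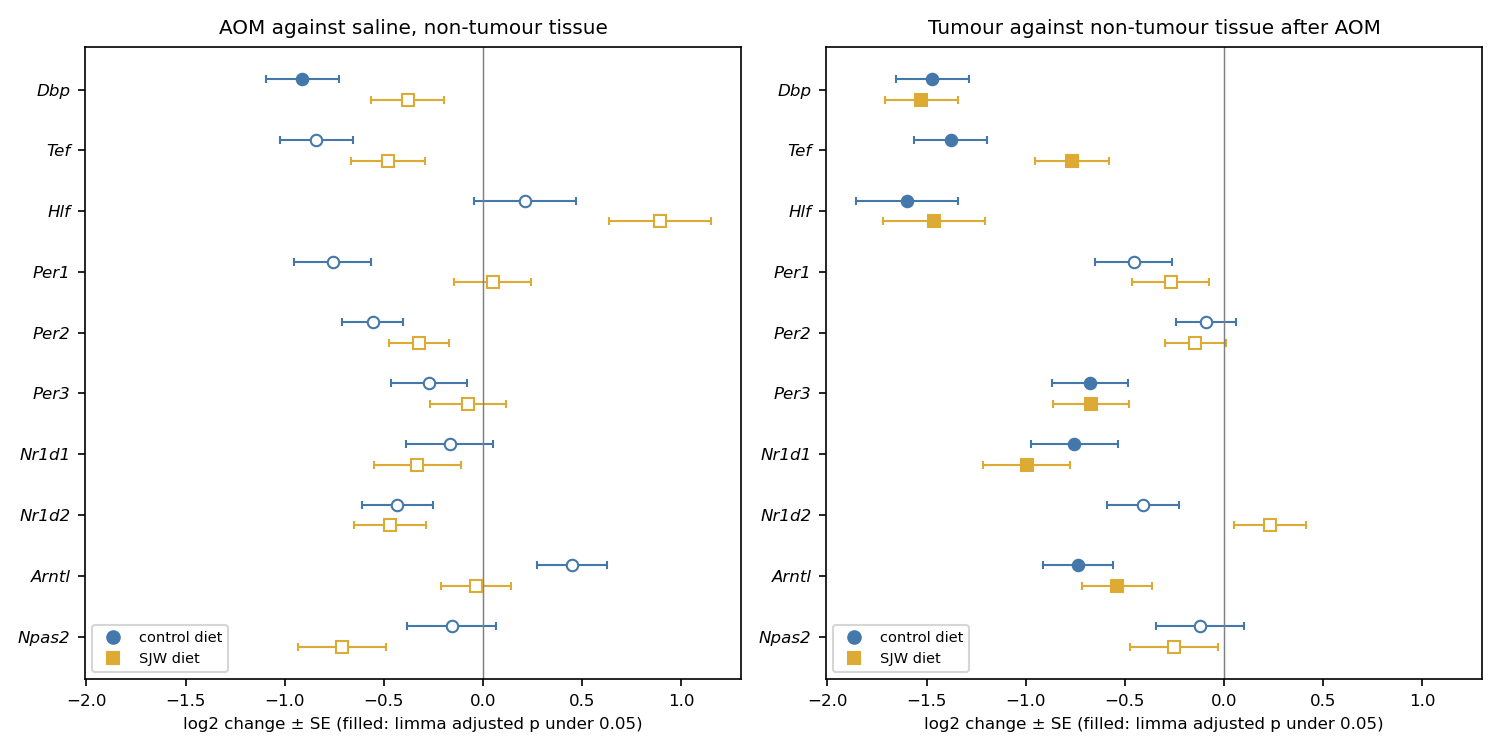
Log2 change ± SE of each member (x axis) after AOM (left) and in tumours against non-tumour tissue after AOM (right), by diet; filled symbols passed limma at an adjusted p under 0.05. Left, only Dbp on the control diet is filled; right, Dbp, Tef, Hlf, Per3, Nr1d1 and Arntl are filled on both diets, Per3 on SJW against a group that was not well above background.

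Of the period genes, which encode the repressors of the loop, Per1 was highest in control saline tissue. It stood there at -0.11, -0.52 and -0.56, against -0.74, -1.20 and -1.33 in SJW saline tissue. In AOM non-tumour tissue it stood at -1.08, -1.08 and -1.30 on the control diet and at -1.22, -0.65 and -1.24 on SJW. In tumours it stood at -1.48, -1.42 and -1.92 on the control diet and at -1.24, -1.37 and -1.31 on SJW. Only control saline tissue stood apart from its neighbour in the order of means among the non-tumour groups. The change after AOM was -0.76 ± 0.19 on the control diet (adjusted p = 0.084) and 0.05 ± 0.19 on SJW (adjusted p = 0.91), and the difference between the diets was 0.81 ± 0.27 (adjusted p = 0.503). In tumours the change was -0.45 ± 0.19 on the control diet (adjusted p = 0.0863) and -0.27 ± 0.19 on SJW (adjusted p = 0.332). With both diets averaged Per1 fell by 0.36 ± 0.14 (adjusted p = 0.0419), the seventh member to pass there (7 of 10, against 46.6% of all genes, 27.2% lower). That call was lost without 7 of the 12 arrays taken singly (control AOM 1 and 2, SJW AOM 2, control tumour 3 and each SJW tumour array), with adjusted p up to 0.117, and with median centring (-0.07, adjusted p = 0.848). It was also lost with the scanner's log ratio (-0.04, adjusted p = 0.887), the deposited table (-0.04, adjusted p = 0.889) and green intensity as a covariate (-0.32, adjusted p = 0.0643).

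Per2 passed after AOM, with diets averaged, and in no tumour comparison with the probe and the ratio used here. It stood at 0.29, 0.89 and 0.79 in control saline and at 0.63, 0.43 and 0.44 in SJW saline tissue. In AOM non-tumour tissue it stood at 0.05, 0.15 and 0.10 on the control diet and at 0.01, 0.28 and 0.24 on SJW, so that all 6 AOM arrays lay below all 6 saline arrays. In tumours it ranged from -0.11 to 0.25 over 6 arrays, overlapping AOM non-tumour tissue. The change after AOM was -0.55 ± 0.15 on the control diet (adjusted p = 0.101) and -0.32 ± 0.15 on SJW (adjusted p = 0.264). The call on the average of both diets was lost without 6 of the 12 arrays taken singly (control saline 2 and 3, SJW saline 1, control AOM 1, SJW AOM 1 and 3), with adjusted p up to 0.0712. It was also lost with median centring (-0.29, adjusted p = 0.329), from the red channel alone (-0.19, adjusted p = 0.569) and with green intensity as a covariate (-0.39, adjusted p = 0.071).

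In tumours Per2 changed by -0.09 ± 0.15 on the control diet (95% interval -0.42 to 0.24, adjusted p = 0.69) and by -0.14 ± 0.15 on SJW (adjusted p = 0.524). The other Per2 probe gave -1.26 ± 0.34 and -0.67 ± 0.34 in those comparisons, and -1.29 ± 0.34 after AOM on the control diet. With the mean of both probes Per2 passed in tumours of the control diet (-0.67, adjusted p = 0.0223). From the red channel alone, with the same probe, Per2 passed in SJW tumours (-0.84, adjusted p = 0.0142) and with diets averaged (-0.60, adjusted p = 0.00774). The call of Per2 in tumours thus depended on the probe and on the channel.

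Per3 was the dimmest member. Its probe was well above background on all 3 control saline arrays, on 2 of 3 arrays of SJW saline, control AOM and both tumour groups, and on 0 of 3 SJW AOM arrays, so no size of change against SJW AOM tissue is given. It stood at -0.35, -0.07 and -0.39 in control saline and at -0.28, -0.46 and -0.58 in SJW saline tissue. In AOM non-tumour tissue it stood at -0.68, -0.68 and -0.26 on the control diet and at -0.66, -0.40 and -0.48 on SJW. Saline and AOM arrays overlapped. In tumours it stood at -0.78, -1.20 and -1.66 on the control diet and at -1.34, -1.04 and -1.18 on SJW, below every non-tumour array. It fell by 0.67 ± 0.19 on the control diet (adjusted p = 0.0139). On SJW it passed in the fit as lower (adjusted p = 0.018), but against a group in which it was not well above background. These calls were lost with median centring, with the red channel alone, and with the scanner's or deposited log ratios. That on the control diet was lost with only the groups compared as well (adjusted p = 0.0874). The call was also lost on the control diet without control AOM 3 (-0.53, adjusted p = 0.0663) or control tumour 3 (-0.45, adjusted p = 0.0772), and on SJW without SJW AOM 2 or 3 or SJW tumour 1 (adjusted p = 0.0649, 0.0522 and 0.0693).

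**Figure D3:**
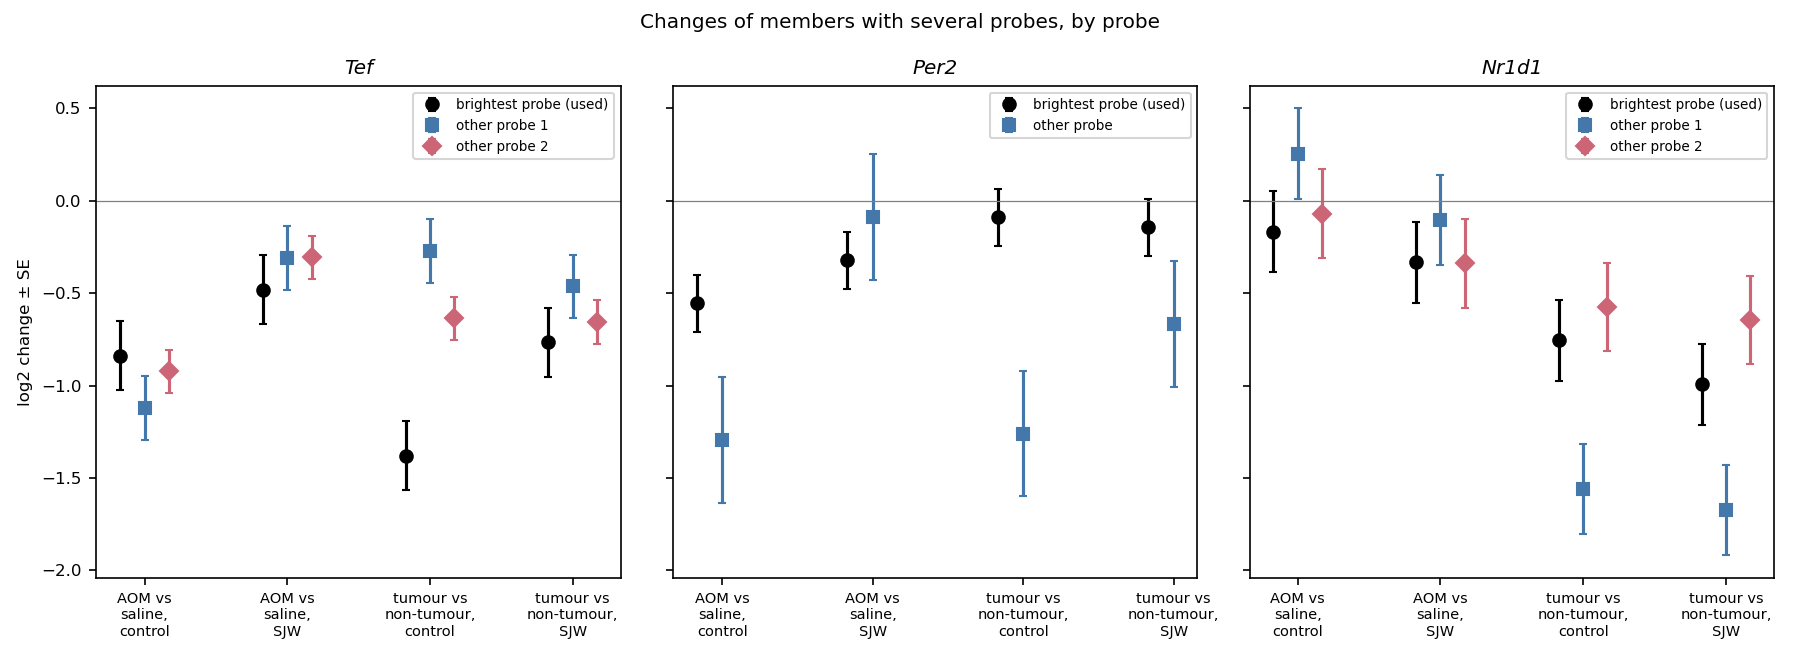
Log2 change ± SE (y axis) of each probe of Tef, Per2 and Nr1d1 in 4 comparisons (x axis), with the brightest probe, used in the text, in black. In tumours of the control diet the Tef probes span -1.38 to -0.27, the Per2 probes -1.26 to -0.09 and the Nr1d1 probes -1.56 to -0.58.

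Nr1d1, a repressor of Arntl, was lower in tumours. It stood at -0.11, 0.00 and -0.18 in control saline tissue and at -0.28, 0.84 and 0.31 in SJW saline tissue, the group with the widest spread (SD 0.56). In AOM non-tumour tissue it stood at -0.54, -0.13 and -0.12 on the control diet and at -0.08, 0.05 and -0.09 on SJW. The non-tumour groups overlapped, and the change after AOM was -0.17 ± 0.22 on the control diet (adjusted p = 0.804) and -0.33 ± 0.22 on SJW (adjusted p = 0.415). In tumours it stood at -0.82, -1.31 and -0.92 on the control diet and at -1.18, -0.82 and -1.11 on SJW, below all non-tumour arrays. Nr1d1 fell by 0.75 ± 0.22 on the control diet (1.69-fold lower, adjusted p = 0.0161) and by 0.99 ± 0.22 on SJW (1.99-fold lower, adjusted p = 0.00404). All 3 probes had negative differences in tumours on both diets, the other ones -1.56 ± 0.24 and -0.58 ± 0.24 on the control diet. On the control diet the call was lost without control AOM 2 (-0.69, adjusted p = 0.0508), control AOM 3 (-0.68, adjusted p = 0.0564) or control tumour 2 (-0.61, adjusted p = 0.0726), and with median centring (-0.48, adjusted p = 0.282). That call was also lost with the scanner's log ratio (-0.54, adjusted p = 0.109) and the deposited table (-0.54, adjusted p = 0.117). On SJW the call held without any 1 array and was lost with median centring (-0.69, adjusted p = 0.136).

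Nr1d2, the other REV-ERB gene, ranged from 0.36 to 0.90 on the 6 saline arrays, from -0.15 to 0.45 in AOM non-tumour tissue and from -0.42 to 0.40 in tumours (6 arrays each). Neighbouring groups in the order of means overlapped throughout. After AOM it changed by -0.43 ± 0.18 on the control diet (adjusted p = 0.299) and by -0.47 ± 0.18 on SJW (adjusted p = 0.177), and by -0.45 ± 0.13 with both averaged (adjusted p = 0.0526). That average passed with the scanner's log ratio (-0.62, adjusted p = 0.00837), with the red channel alone (-0.67, adjusted p = 0.0142) and without background subtraction (-0.45, adjusted p = 0.0376), and likewise with the deposited table or a filter over all 18 arrays. In tumours it changed by -0.41 ± 0.18 on the control diet (adjusted p = 0.0968) and by 0.23 ± 0.18 on SJW (adjusted p = 0.367), and the difference between these changes was 0.64 ± 0.26 (adjusted p = 1). Without control tumour 2 it passed on the control diet (-0.59, adjusted p = 0.0262). From the red channel alone Nr1d2 passed as higher in SJW tumours (0.56, adjusted p = 0.0427). The difference between Nr1d1 and Nr1d2 in tumours was not tested.

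Of the activators, Arntl is the partner that the loop cannot do without, and Npas2 is a relative of Clock. Arntl stood at -0.30, 0.47 and -0.16 in control saline tissue and at 0.55, 0.32 and 0.31 in SJW saline tissue. In AOM non-tumour tissue it stood at 0.57, 0.19 and 0.59 on the control diet and at 0.37, 0.37 and 0.34 on SJW. One control saline array, replicate 2, lay among the AOM arrays. The change after AOM was 0.45 ± 0.18 on the control diet (95% interval 0.08 to 0.82, adjusted p = 0.258) and -0.03 ± 0.18 on SJW (adjusted p = 0.937). In tumours Arntl stood at -0.29, -0.29 and -0.27 on the control diet and at -0.06, -0.07 and -0.40 on SJW, below all AOM non-tumour arrays. Of these 6 arrays, 5 lay within the range of control saline tissue and SJW tumour 3 lay below it. It fell by 0.73 ± 0.18 on the control diet (1.66-fold lower, adjusted p = 0.00516) and by 0.54 ± 0.18 on SJW (1.45-fold lower, adjusted p = 0.0357). The control diet call held without any 1 array. It was lost with median centring (-0.37, adjusted p = 0.198), the scanner's log ratio (-0.71, adjusted p = 0.0742) and the deposited table (-0.71, adjusted p = 0.0796). The SJW call was lost without any 1 of SJW AOM 1, 2 and 3 and SJW tumour 1 and 3, with adjusted p between 0.0531 and 0.144, and with median centring (-0.25, adjusted p = 0.443). It was also lost with the red channel alone (adjusted p = 0.161), the scanner's log ratio (0.186), the deposited table (0.195) and without background subtraction (0.0791).

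Npas2 ranged from 0.75 to 1.20 on the 6 saline arrays, from 0.08 to 0.99 in AOM non-tumour tissue and from -0.04 to 1.0 in tumours (6 arrays each). Neighbouring groups in the order of means overlapped. After AOM it changed by -0.16 ± 0.22 on the control diet (adjusted p = 0.823) and by -0.71 ± 0.22 on SJW (adjusted p = 0.11), where all saline arrays lay above all AOM arrays. In tumours it changed by -0.12 ± 0.22 on the control diet (adjusted p = 0.716) and by -0.25 ± 0.22 on SJW (adjusted p = 0.438).

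As a set, the members lay lower in both contrasts. After AOM, 8 of 10 had a negative difference on each diet, with medians of -0.35 on the control diet and -0.33 on SJW, against -0.01 and -0.02 over all genes. The exceptions were Hlf and Arntl on the control diet and Hlf and Per1 on SJW. In tumours, 10 of 10 on the control diet and 9 of 10 on SJW were negative, with medians of -0.70 and -0.60 against -0.05 and -0.06 over all genes. The groups did not overlap for 5 and 6 members after AOM (17.8% and 28.6% of all genes) and for 7 and 6 members in tumours (42.7% and 46.2% of all genes). With diets pooled they did not overlap for 3 members after AOM (3.68% of all genes), which were Dbp, Tef and Per2, and for 6 in tumours (24.3% of all genes). Calls over all genes in tumours of the control diet were 3313 higher and 5020 lower with loess, and 3777 higher and 1854 lower with median centring, where the median of all genes was 0.11 in place of -0.05. With that centring Per2 and Npas2 had positive differences in control tumours, and Per1, Per2 and Npas2 in SJW tumours; the scanner's log ratio turned the same signs except that of Npas2 on SJW. After AOM, centring turned the signs of Nr1d1 on the control diet and of Per1, Per3 and Arntl on SJW. In tumours, 3 members passed with median centring on the control diet (Dbp, Tef and Hlf) and 2 on SJW (Dbp and Hlf), all lower.

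The arms of the loop were compared because the labels give no hour of collection, so that phase could not be set against time. In tumours Arntl passed as lower on both diets, as did Dbp and Nr1d1. Both calls of Arntl were lost with median centring, the scanner's log ratio and the deposited table. Both calls of Nr1d1 were lost with median centring, and that on the control diet also with the scanner's log ratio and the deposited table. Npas2 did not pass (-0.12 ± 0.22 and -0.25 ± 0.22), and its sign turned with median centring. After AOM on the control diet the signs were opposite for Dbp (-0.91, passed) and Arntl (0.45, adjusted p = 0.258), while Npas2, of the arm of Arntl, was negative too (-0.16, adjusted p = 0.823). On SJW, Dbp and Arntl were both negative (-0.38 and -0.03, neither passed). Per array, the mean of the 8 members other than the activators was -0.44 to -0.05 on saline, -0.64 to -0.43 in AOM non-tumour tissue and -1.60 to -1.01 in tumours. The mean of Arntl and Npas2 was 0.27 to 0.80, 0.25 to 0.79 and -0.12 to 0.36, respectively. Both means overlapped between saline and AOM tissue, and the activators also between AOM tissue and tumours (control tumour 1), where the other 8 did not overlap.

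Within groups, Arntl was set against each other member over the 12 non-tumour arrays, as differences from the group mean. For Dbp, Pearson's r was -0.53 (exact within-group permutation p = 0.14, adjusted over 9 pairs 0.382) and Spearman's rho -0.36 (p = 0.295, permutation), and Dbp and Arntl deviated in opposite directions on 8 of 12 arrays. For Per3 the sign was the same as for Arntl (r = 0.66, exact permutation p = 0.044, adjusted 0.382, rho = 0.63). The Per3 probe was well above background on 0 of 3 SJW AOM arrays and on 2 of 3 of SJW saline and of control AOM, which limits its r. For Hlf the sign was the same as for Arntl too (r = 0.68, exact permutation p = 0.151, adjusted 0.382). For Nr1d1 r was -0.18 (exact permutation p = 0.479) and for Npas2, of the same arm as Arntl, -0.17 (exact permutation p = 0.705). In all, 0 of 9 pairs passed, and 1 of 9 had an unadjusted p under 0.05 (two-sided tests, 1296 permutations). Without the 2 arrays whose Arntl differences were farthest from the median, control saline 1 and 2 (left out after the data were seen), r was -0.53 for Dbp, 0.61 for Per3 and 0.61 for Hlf, and -0.05 for Tef in place of -0.46. These differences were from group means that still held the arrays left out. The arrays farthest in the level of Arntl were control saline 1 and 3. Without them, and with group means recomputed, r was -0.62 for Dbp, 0.58 for Per3, 0.54 for Hlf and -0.004 for Tef. Over all 12 arrays r for Dbp was -0.62 with median centring, -0.39 from the red channel alone and -0.15 with the scanner's log ratio, and r for Hlf turned to -0.40 and -0.52 in the last 2.

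**Figure D4:**
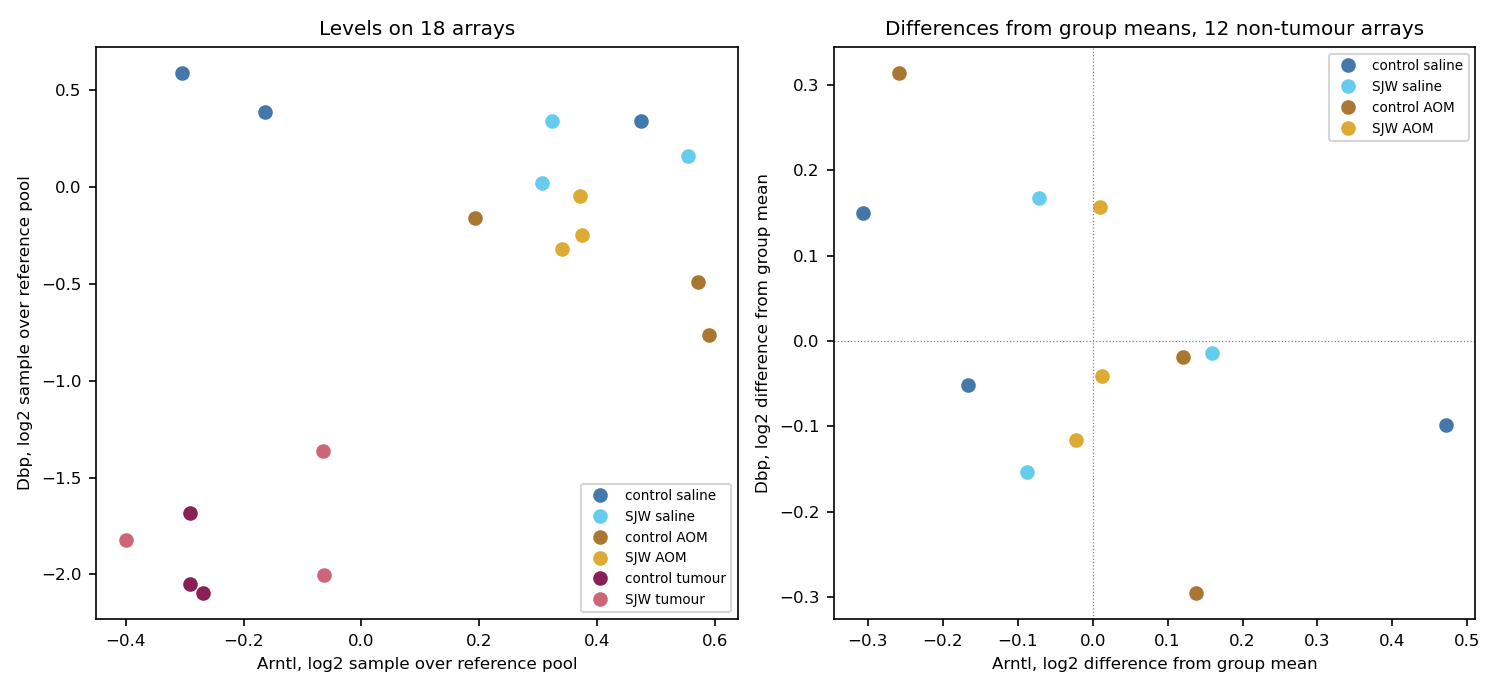
Dbp (y axis) against Arntl (x axis), as log2 of sample over pool on 18 arrays (left) and as log2 differences from group means on the 12 non-tumour arrays (right); each point is 1 array. Left, the 6 tumour arrays lie at or below -1.36 in Dbp; right, 8 of 12 arrays lie in quadrants of opposite sign (r = -0.53).

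Between the diets no member passed. Between SJW and control diet, 0 of 10 members passed after saline, after AOM and in tumours, against 0% of all genes in each comparison, and 0 passed in the differences of the AOM or tumour change between diets (limma). At an unadjusted p under 0.05 there were 4 members after saline, 0 after AOM and 3 in tumours (10.7%, 3.18% and 6% of all genes). In the differences of the AOM and of the tumour change there were 1 and 2 (9.34% and 4.14% of all genes). The 4 after saline were Per1 (-0.69 ± 0.19, adjusted p = 0.192), Tef (-0.53 ± 0.19, adjusted p = 0.309), Hlf (-0.63 ± 0.26, adjusted p = 0.391) and Arntl (0.39 ± 0.18, adjusted p = 0.445). In Per1, Tef and Hlf the groups did not overlap, 3 of 10 members against 14.1% of all genes; they did not overlap for 1 member after AOM (9.12% of all genes) and for 2 in tumours (10.5% of all genes).

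Of 14 other clock genes, 4 passed in tumours on each diet, 2 higher and 2 lower, and 3 of these 4 were shared. Over all genes 32% passed on the control diet and 24.6% on SJW, so this share is near the background. Ciart, a clock-driven repressor, averaged 0.02 ± 0.35 (SD, n = 3) in control AOM tissue and -1.21 ± 0.16 in control tumours. It fell by 1.23 ± 0.19 on the control diet and by 1.0 ± 0.19 on SJW (adjusted p = 0.000217 and 0.00139), and Clock, the partner of Arntl, by 0.53 ± 0.13 and by 0.62 ± 0.13 (adjusted p = 0.00613 and 0.00311). Csnk1e, a casein kinase that phosphorylates PER proteins, rose by 0.56 ± 0.15 and 0.83 ± 0.15 (adjusted p = 0.0117 and 0.00103). Arntl2, a paralog of Arntl, rose by 0.70 ± 0.20 on the control diet (adjusted p = 0.0148), and Fbxl21, which encodes a ligase subunit acting on CRY, by 0.58 ± 0.20 on SJW (adjusted p = 0.0458). The median of the 14 was -0.11 on the control diet and 0.16 on SJW.

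**Figure D5:**
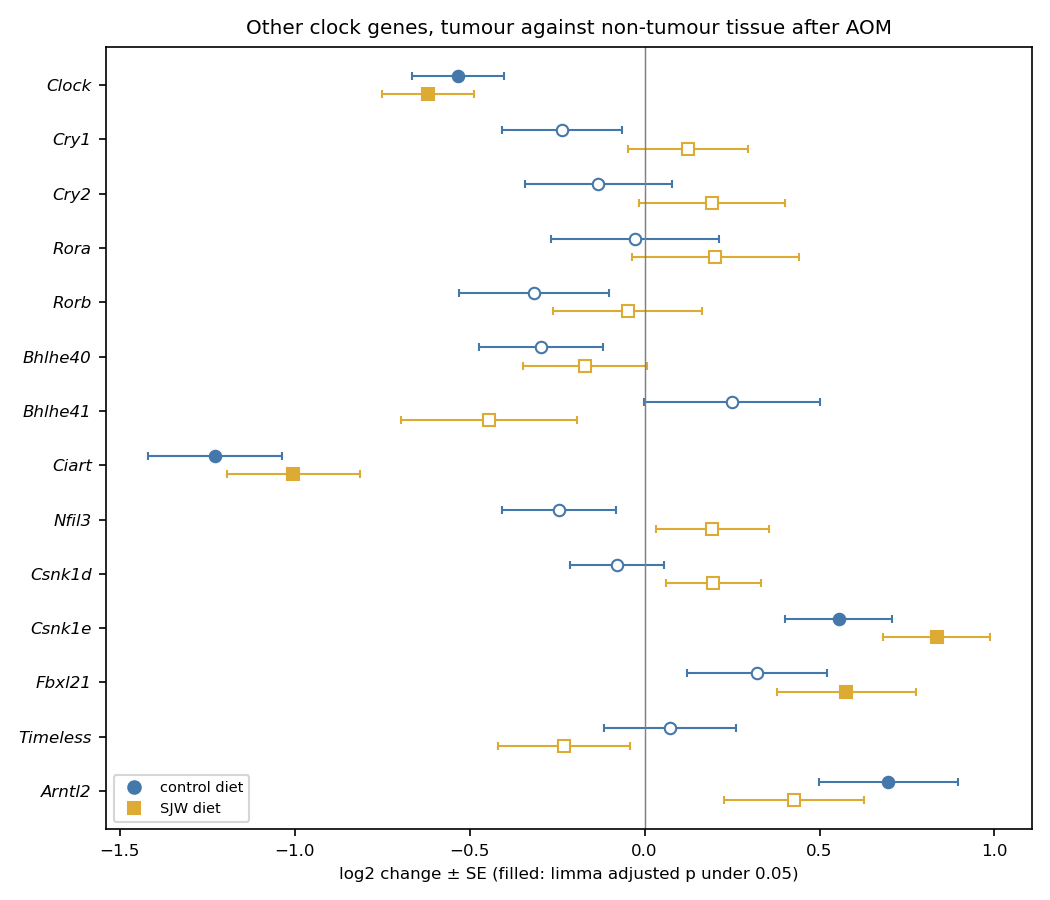
Log2 change ± SE (x axis) of 14 other clock genes (y axis) in tumours against non-tumour tissue after AOM, by diet; filled symbols passed limma at an adjusted p under 0.05. Ciart and Clock are filled below 0 and Csnk1e above 0 on both diets.

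After AOM, 0 of these 14 passed on either diet, against 0.583% of all genes on the control diet and 1.14% on SJW (limma). At an unadjusted p under 0.05 there were 4 on the control diet and 2 on SJW, against 13.6% and 19.3% of all genes. The smallest p on the control diet belonged to Cry2, which encodes a repressor that acts with the PER proteins (-0.71 ± 0.21, adjusted p = 0.123), Nfil3, a repressor at D-boxes (0.53 ± 0.16, adjusted p = 0.134), and Ciart (-0.47 ± 0.19, adjusted p = 0.28). On SJW it belonged to Arntl2 (0.53 ± 0.20, adjusted p = 0.164), Nfil3 (0.35 ± 0.16, adjusted p = 0.254) and Cry2 (-0.41 ± 0.21, adjusted p = 0.294). Medians of the list were 0.08 and 0.14.

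Among 12 genes known as clock-controlled in other tissues, tumours showed both directions. Over all genes, 32% passed in tumours on the control diet (19.3% lower) and 24.6% on SJW (15.4% lower). On the control diet 2 fell, Tsc22d3 (-1.22, adjusted p = 0.000834) and Por (-0.76, adjusted p = 0.00124), and 2 rose, Angptl4 (0.66, adjusted p = 0.00674) and Rgs16 (0.50, adjusted p = 0.0109). On SJW Por fell (-0.42, adjusted p = 0.0497) and Angptl4 (0.94, adjusted p = 0.000784), Pdk4 (0.84, adjusted p = 0.00975) and Tspan4 (0.58, adjusted p = 0.0277) rose. After AOM only Tspan4 passed, on SJW (1.17, adjusted p = 0.0198), where 1.14% of all genes passed.

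Glucocorticoids set clocks in peripheral tissues, and Per1 is among their target genes. Of 7 measured glucocorticoid-responsive genes, Per1 included, 4 fell in control tumours (Tsc22d3; Fkbp5 by 1.42; Klf9 by 0.78; Sgk1 by 1.48; adjusted p = 0.000834, 0.00106, 0.00595 and 0.0183) and 1 in SJW tumours (Sgk1, -1.33, adjusted p = 0.0388), while 0 passed after AOM. Over all genes, 19.3% passed as lower in control tumours and 15.4% in SJW tumours. After AOM 0.583% of all genes passed on the control diet and 1.14% on SJW. Of 10 immediate early genes, which can reset Per genes after a stimulus, Egr1 rose after AOM on both diets (1.08 ± 0.23 and 1.1 ± 0.23, adjusted p = 0.0439 and 0.0351). In tumours Zfp36 fell (-0.77 and -0.75, adjusted p = 0.00161 and 0.00257) and Ier2 fell (-0.50 and -0.44, adjusted p = 0.00365 and 0.0107) on both diets; on SJW, Fos fell (-1.11, adjusted p = 0.0369) and Jun rose (0.65, adjusted p = 0.0226).

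Marker lists moved with these results, and their part in them was not tested. After AOM, 10 of 10 smooth muscle markers were positive on each diet, with medians of 2.17 and 1.85 (log2), 0 called on either diet and 9 of 10 called with diets averaged. Over all genes 0.583% were called on the control diet, 1.14% on SJW and 5.57% with diets averaged. Colon markers were negative for 8 of 8 on the control diet and 7 of 8 on SJW (medians -0.81 and -1.35, 1 and 2 called lower), and ileum markers for 7 and 6 of 8 (medians -0.50 and -0.43, 0 called). Adipocyte markers were negative for 7 and 6 of 7 (medians -0.27 and -0.73, 0 called), and T cell markers were positive for 2 of 5 on the control diet and 5 of 5 on SJW (medians -0.03 and 0.86, 0 and 1 called). Pancreatic acinar markers averaged 3.69 on SJW AOM 3, against -0.45 and -0.37 on the other arrays of its group. Without that array 2 members passed after AOM with diets averaged (Per2 was lost), and 4 passed in SJW tumours (Per3 and Arntl were lost). In tumours 8 of 10 smooth muscle, 5 of 8 colon and 5 of 7 enterocyte markers fell on each diet. Over all genes 15.4% passed as lower on SJW and 19.3% on the control diet. Medians of these markers were -2.94, -2.65 and -1.16 on the control diet. Defining smooth muscle markers such as Des (-5.04) and Cnn1 (-4.65) fell more there than any clock member.

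Genes with a profile most like that of Dbp over the 12 non-tumour arrays, among 16224 genes with a symbol, were Tmem63b (r = 0.94), Gipc3 (0.92), Tom1 (0.91), Limk2 (0.91) and Zfp951 (0.91). Tef came at rank 60 (r = 0.85), Nr1d2 at 794 (0.66) and Hlf at 13120 (-0.43). Most like Arntl were Gatad2b (0.82), Pld2 (0.81), Slc45a4 (0.80), Tnpo2 (0.80) and Copg2 (0.78). These coefficients describe arrays that share 4 groups and 3 slides and carry no test.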

How the data were processed

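RNA of 18 mouse intestine samples was measured on 18 Agilent arrays of 45018 spots (1639 of them control spots). Groups were taken from the labels, and the series' design text calls the 3 samples of a group biological replicates. Per the file headers, arrays were read with Agilent Feature Extraction 10.10.1.1 (protocol GE2_1010_Sep10) and annotated on mm9. For both channels the deposited intensity columns give the median pixel of the spot and of its local background. The scanner's deposited log10 ratio, red over green, had its background subtracted and its dyes normalized by that software. The authors' deposited log2 values, in 35491 rows, matched log2 of processed red over green on every array (r of at least 0.99999, slope 1.00). These columns were not centred: in replicate order, the column medians of control saline were 0.160, 0.207 and 0.152, of SJW saline 0.228, 0.148 and 0.148, of control AOM 0.103, 0.206 and 0.0529, of SJW AOM 0.110, 0.129 and -0.0310, of control tumours 0.157, 0.125 and 0.342, and of SJW tumours 0.182, 0.125 and 0.156.

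Background was corrected with normexp (offset 50) on the median intensity, and loess, in which control spots had weight 0, normalized the log2 ratios of each array. Control spots and population outliers (0.27% to 0.505% of spots, 0 of them in the member probes) were left out, and spots of a probe averaged. A probe was kept (34081 of 41174) if at least 1 group had it well above red background on each of its 3 arrays. The brightest kept probe stood for a gene, which gave 26073 genes, 16799 of them with a symbol from a RefSeq table of GRCm38.p6, used for names. Genes were compared in 1 limma fit of all 18 arrays (limma 3.58.1, R 4.3.3, data.table package version 1.17.8; 12 residual degrees of freedom), with Benjamini-Hochberg adjustment over all genes within each comparison and a threshold of 0.05. There were 11 comparisons: AOM against saline and tumour against AOM non-tumour tissue in each diet and with diets averaged, SJW against control diet after saline, after AOM and in tumours, and, for AOM and for tumours, the change on SJW minus that on the control diet. SE are limma's moderated standard errors.

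The members, the gene lists and the tests were chosen with earlier results of these data known. Named genes were the 10 members, the genes of the 4 related lists that passed (or the smallest p, up to 3), and the 5 genes most correlated with Dbp and with Arntl; for comparisons of the diets and averages the list genes are not printed. Some other clock genes are not reported here and are left out of that list's counts. Dyes were not swapped, so a dye effect of a probe is shared by all arrays. The procedure was tested on simulated data. Other settings and their effect are in the closing section.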

Additional observations from a re-analysis of the deposited data

Results flagged for a closer look

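Per1 moved in opposite directions with the diet in saline-treated tissue and in tumours. Against the control diet, SJW gave a log2 difference of -0.69 after saline and of 0.30 in tumours, and in each case the 3 arrays of one diet lay wholly to one side of the 3 arrays of the other. Neither difference passed in limma (adjusted p = 0.192 and 0.903), and the difference between these differences was not tested.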

How the results depend on the processing

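The count of members that passed after AOM on the control diet (1) became 0 with median centring, with the red channel alone, with only the groups compared and without any 1 of its 6 arrays. It became 3 with the scanner's log ratio and with the deposited table, and 2 with probes above background on all 18 arrays, with the mean of a gene's probes and without background subtraction. With diets averaged (3) it became 1 with median centring, 8 with the scanner's log ratio and 6 with the deposited table. It became 5 without background subtraction, and 2 to 3 with 1 array left out. The 1 with median centring was Hlf, as higher, while the 3 lower calls were lost. Hlf, as higher, was also among the 8 and the 5, and it passed without control saline 2. In tumours the counts (6, 6 and, averaged, 7) became 3 on the control diet and 2 on SJW with median centring, 3 on the control diet with the scanner's log ratio, and 1, 2 and 3 with the deposited table, which lists 9 members. With the red channel alone they were 5, 6 and 9: on SJW Tef, Per3 and Arntl were lost while Per2 and Npas2 (lower) and Nr1d2 (higher) were gained, and with diets averaged Per3 was lost and Per2, Npas2 and Nr1d2 were gained. With the mean of a gene's probes they were 7, 6 and 8. With 1 array left out they were 4 to 6, 4 to 6 and 6 to 7. Smaller shifts in tumours came with the scanner's log ratio, where Per3 and Arntl were lost on SJW, and Per1 and Per3 with diets averaged. With median centring Per1 and Arntl were lost with diets averaged. The other counts stayed at 0 in all settings. The cause of these shifts was not tested, except that the deposited table lacks Hlf and the probe of Tef used.

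Among values that passed in the main or the other setting, a sign turned in 3 cases: Tef in tumours of the control diet (0.20) and of both diets (0.053) with the deposited table, where another Tef probe stood in, and Nr1d2 in tumours of both diets (0.39, adjusted p = 0.0334) with the red channel alone. With loess that other Tef probe was negative too, at -0.27 on the control diet and -0.37 with diets averaged. The scanner's log ratio moved the median of all genes to -0.12 after AOM on each diet and to 0.15 in control tumours. With replicate number as a block the counts were 1, 0 and 3 after AOM and 6, 6 and 7 in tumours, as without it, and no member's call changed. Samples of the same number correlated at -0.35 to 0.41 among the non-tumour groups and at -0.16 to 0.14 between the tumour groups. Tumours were not correlated with non-tumour tissue of the same number, so a pairing of these by animal was not tested. The main fit did not pair samples. Slide as a fixed block in non-tumour tissue (1, 0 and 3) or as a random block in tumours (6, 6 and 7) changed no count. No slide held both tumour and non-tumour arrays, so the random block could not separate slide or scan day from tumour status. In non-tumour tissue arrays of the same replicate number shared a slide, so there the blocks by number and by slide are not separate checks. Signal over background limits Per3, and 3 arrays per group limit every call.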
